A study of Mus musculus with 12 samples.

Results

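The 29 genes described here make or handle cholesterol. They were taken by gene symbol from a table of 55487 genes measured in mouse hippocampus, and all 29 were found and passed the limit on low values. They comprise 8 enzymes of the mevalonate route, 10 enzymes that turn its product into cholesterol, 6 genes that control SREBP2, and 5 genes of sterol storage, movement and turnover. Both enzyme groups are counted below as the 18 enzymes.

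The brain makes its own cholesterol, because lipoproteins of the blood do not cross its barrier. Most of that cholesterol is held in myelin, the sheath that oligodendrocytes wrap around axons, while astrocytes supply it to neurons in the adult. SREBP2 is a transcription factor held in the endoplasmic reticulum membrane. When sterols fall, it is escorted to the Golgi and cut by a pair of proteases, and the released fragment switches on the genes of the pathway.

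Hippocampal RNA of 6 wild-type (WT) mice and 6 mice lacking upstream stimulatory factor 1 (USF-1 KO) was sequenced, 1 library per mouse. All mice were of the C57Bl/6JRccHsd strain and aged 3 to 4 months. The deletion was constitutive, so every cell type lacked the factor throughout life, and the animals were littermates from heterozygous breeding. By the sample labels WT held 4 females and 2 males, and KO 2 females and 4 males. The study's own description of the groups gives an equal split by sex, so the sex tests below hold only as far as the labels do. The questions were whether any of the genes differed between genotypes, and whether they followed the level of myelin genes in each mouse.

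Libraries held between 21679622 and 32091173 reads on genes, with medians of 26767181.5 in WT and 24031309.5 in KO. The normalised count of Usf1, the deleted gene, ranged from 117 to 163 in KO, with a median of 139. In WT it ranged from 842 to 1583, with a median of 1512. The mouse at 842 was WT 5 (numbers only name the mice). WT 1 and WT 5 also stood apart in choroid plexus markers, a tissue next to the hippocampus, with scores of 3.41 and 4.65 against at most 0.10 in the other 10 mice. A marker score is the mean, over a list of genes, of log2(normalised count + 1) centred on the 12 mice.

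The myelin score, over 15 genes such as Mbp and Mag, differed by -0.70 between KO and WT (adjusted exact permutation p = 0.0289, two-sided, 8 marker lists). It ranged from -0.66 to -0.09 in KO. In WT it was 0.34 to 0.70 in 5 mice and -0.48 in WT 4, which therefore sat among the KO mice. The summed normalised counts of the 15 genes were 98185 to 213776 in WT and 84706 to 128771 in KO. In whole tissue, fewer oligodendrocytes and less myelin RNA per cell cannot be told apart. Scores of oligodendrocyte precursors (-0.20) and microglia (-0.21) were also lower in KO, each at the same adjusted p. The astrocyte score differed by -0.05 (adjusted exact permutation p = 0.480) and the excitatory neuron score by 0.11 (adjusted exact permutation p = 0.388). Scores of inhibitory neurons (-0.08), endothelium (0.03) and choroid plexus (-1.11) gave adjusted exact permutation p-values of 0.388, 0.621 and 0.480.

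USF-1 binds the palindromic E-box CACGTG and SREBP2 binds sterol regulatory elements of the form TCACNCCAC, so both were sought, on both strands, in RefSeq promoters of build GRCm38.p6. A promoter was taken as 250 bases before to 50 bases after an annotated start. Of the 29 genes, 25 matched, with 31 promoters. Fdps, Fdft1, Sqle and Stard4 had no promoter there, so they were not searched for any motif. The E-box stood in 5 of these 31 (16.1%), against 7.15% of 32851 promoters of all genes. A pair of these were overlapping promoters of Scap that held the same E-box, so there were 4 sites in 4 genes. The sterol element stood in 1 of 31 (3.23%), against 1.24% of all. The letters CCAAT, which bind a cofactor of SREBP2, were found in 21 of 31 (67.7%), against 37.4% of all. Windows around the E-box of Insig1, Sc5d, Dhcr7 and Scap and around the element of Hmgcs1 are shown, since these are the members whose promoters held either motif. Capitals mark the motif, each sequence runs 5′ to 3′ on the strand of the gene, and a match is only a run of letters.
Insig1 (chr5:28071274-28071353, plus strand): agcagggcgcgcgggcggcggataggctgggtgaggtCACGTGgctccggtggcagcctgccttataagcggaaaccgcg
Sc5d (chr9:42264356-42264435, minus strand): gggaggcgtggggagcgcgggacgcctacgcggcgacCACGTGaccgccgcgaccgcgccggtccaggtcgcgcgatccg
Dhcr7 (chr7:143823198-143823277, plus strand): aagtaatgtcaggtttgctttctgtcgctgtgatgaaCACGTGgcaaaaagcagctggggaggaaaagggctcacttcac
Scap (chr9:110333279-110333358, plus strand): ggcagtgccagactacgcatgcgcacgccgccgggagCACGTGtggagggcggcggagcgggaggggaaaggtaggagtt
Hmgcs1 (chr13:119690177-119690259, plus strand): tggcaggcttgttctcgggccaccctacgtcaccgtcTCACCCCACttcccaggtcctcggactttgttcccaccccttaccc
The E-box began 101 bases before the annotated start in Insig1, 98 in Sc5d, 164 in Dhcr7 and 40 in Scap (in the other Scap promoter it lay after the start). The other promoters of Dhcr7 held no E-box, and the Dhcr7 window lay inside the gene as annotated (chr7:143823145-143848410). The element of Hmgcs1 began 137 bases before its start. None of these 5 genes passed the test between genotypes given below.

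Levels were compared between genes as mean normalised count per kilobase of annotated exon. That length joins the exons of all annotated transcripts of a gene, so it can exceed any single transcript. Cyp46a1, the neuronal hydroxylase that lets cholesterol leave the brain, was the highest at 1308 per kilobase. Hmgcs1, which makes the precursor of mevalonate, followed at 1085 and Srebf2, which encodes SREBP2, at 849. The SREBP2 escort Scap stood at 400 and its retention partner Insig1 at 373. The lowest were Lss (58.2), Cyp27a1 (44.7) and Fdps (31.8). For Lss the joined length was 10.8 kilobases, and its mean count of 628 lay above those of Mvk (417) and Idi1 (318). Even the lowest value of any member rested on 37 reads, for Cyp27a1 in 1 library. Some members share transcript sequence with other genes, so their reads may have been split or lost: of all stretches of 75 bases, 33.9% were shared in Acat2, 27.7% in Mbtps2, 23.6% in Idi1, 23.5% in Fdps and 21.8% in Fdft1.

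None of the 29 genes passed the test between genotypes (limma, adjusted p under 0.05 over 18221 genes), where 0.900% of all genes did (0.159% higher and 0.741% lower in KO). At an unadjusted p under 0.05, 4 members were higher and 1 lower in KO, beside 5.92% and 7.60% of all genes. edgeR and DESeq2 on recovered reads also called 0 of the 29. Of all genes, edgeR called 24 upwards and 127 downwards, and DESeq2 130 and 481. None had genotypes that did not overlap, against 1.50% of all genes. Over the 29 genes the median difference was -0.01 (log2), beside -0.0006 over all genes tested.

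**Figure D1:**
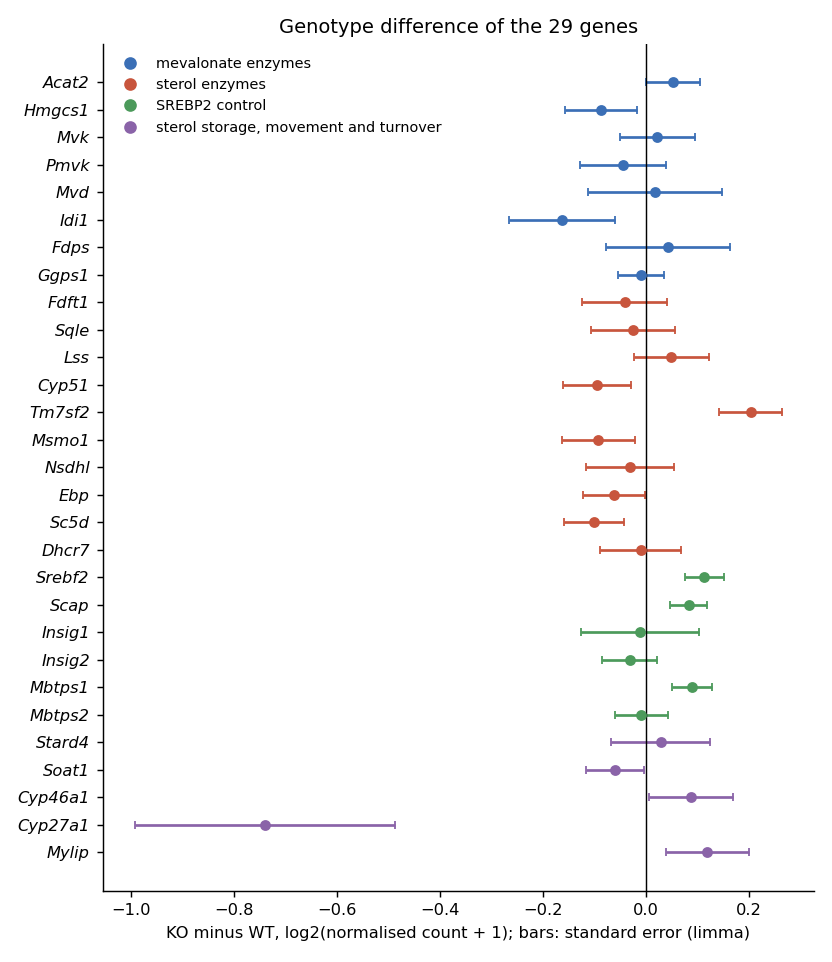
Difference between KO and WT for each gene, on the scale of log2(normalised count + 1), with points for the estimate over 6 mice per genotype and bars for its standard error; colours give the gene groups. Most points lie within 0.10 of 0, Tm7sf2 stands highest at 0.20 and Cyp27a1 lowest at -0.74 with the widest bar.

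In the mevalonate route, 4 of 8 enzymes had a difference above 0 and 4 below, from -0.16 to 0.05. Hmgcs1 ranged from 4783 to 5750 with a median of 5061 in WT, and from 4099 to 5368 with a median of 4976 in KO. The genotypes overlapped over most of their range, and the difference was -0.09 (SE 0.07, adjusted p = 0.628). Idi1, which interconverts the activated isoprene units, ranged from 273 to 416 with a median of 335 in WT, and from 250 to 341 with a median of 308 in KO. The KO mice thus lay lower but within reach of WT, and the difference was -0.16 (SE 0.10, adjusted p = 0.529).

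Mvd, the enzyme that makes the first isoprene unit, ranged from 340 to 527 with a median of 435 in WT and from 323 to 532 with a median of 443 in KO. Fdps, which joins isoprene units into farnesyl diphosphate, ranged from 110 to 151 with a median of 130 in WT and from 106 to 159 with a median of 138 in KO. Pmvk, a kinase of the route, ranged from 744 to 970 with a median of 870 in WT and from 716 to 994 with a median of 832 in KO. In all 3 genes the KO range contained the WT range. Acat2, Mvk and Ggps1, which make the starting unit, phosphorylate mevalonate and feed protein prenylation, had differences between -0.01 and 0.05.

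Among the sterol enzymes, 8 of 10 differences lay below 0, and the exceptions were Lss (0.05) and Tm7sf2 (0.20). Tm7sf2, a sterol reductase of the nuclear and endoplasmic reticulum membrane, ranged from 315 to 401 with a median of 373 in WT, and from 397 to 451 with a median of 423 in KO. The genotypes overlapped only slightly, and all 6 KO mice exceeded the WT mean. The estimate was 0.20 (SE 0.06, unadjusted p = 0.00504, adjusted p = 0.144). Tm7sf2 shares 8.83% of its stretches with other genes.

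Fdft1, the squalene synthase that commits the route to sterols, ranged from 1360 to 1606 with a median of 1429 in WT, and from 1168 to 1657 with a median of 1421 in KO. The KO mice thus spread to both sides of WT, and the difference was -0.04 (SE 0.08, adjusted p = 0.873). The other sterol enzymes, which epoxidise squalene (Sqle), demethylate lanosterol and its products (Cyp51, Msmo1, Nsdhl) and finish the ring system (Ebp, Sc5d, Dhcr7), had differences from -0.10 to -0.01. Sc5d was the only one of these with all 6 KO mice below the WT mean (-0.10, SE 0.06, adjusted p = 0.487). The genotypes still overlapped, with KO at 1463 to 1660. By the labels, the WT females lay above all KO mice, at 1773.2 to 1849.2. The WT males, WT 5 and WT 6, lay within the KO range, at 1526.5 and 1493.5.

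In the control of SREBP2, Srebf2 (chr15:82147181-82205379, plus strand) ranged from 5473 to 6199 with a median of 5810 in WT, and from 6179 to 6716 with a median of 6307 in KO. The ranges overlapped only through WT 4, the highest WT mouse, which lay above the 2 lowest KO mice. The difference was 0.11 (SE 0.04, adjusted p = 0.192). Scap ranged from 2765 to 2955 with a median of 2943 in WT, and from 2874 to 3244 with a median of 3050 in KO. The lowest KO mouse lay within the WT range, the other 5 exceeded the WT mean, and the difference was 0.08 (SE 0.04, adjusted p = 0.332).

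Mbtps1, the protease that makes the first cut in SREBP2, ranged from 2262 to 2479 with a median of 2365 in WT, and from 2382 to 2653 with a median of 2559 in KO. The ranges overlapped, all 6 KO mice exceeded the WT mean, and the difference was 0.09 (SE 0.04, adjusted p = 0.320). Insig1, which holds SCAP back when sterols are plentiful and is itself an SREBP2 target, ranged from 1000 to 1268 with a median of 1171 in WT, and from 859 to 1386 with a median of 1229 in KO. The KO range contained the WT range, and the difference was -0.01 (SE 0.11), with a sign that depended on the processing. Insig2, its paralogue, and Mbtps2, the protease of the second cut, differed by -0.03 and -0.01.

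Among the genes of storage, movement and turnover, Cyp27a1, a mitochondrial sterol hydroxylase of bile acid synthesis, had the lowest estimate of the 29. The gene lies at chr1:74713574-74737892 on the plus strand (GRCm38). It ranged from 62.5 to 172 with a median of 118 in WT, and from 44.9 to 119 with a median of 63.6 in KO. All 6 KO mice lay below the WT mean, with WT 4 among the KO mice and KO 1 among the WT mice. The difference was -0.74 (SE 0.25, unadjusted p = 0.0109, adjusted p = 0.203). Without WT 4 it was -0.92 and passed the test (adjusted p = 0.0423), and with the myelin score in the model it was 0.13 (adjusted p = 0.851).

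Cyp46a1 ranged from 3756 to 5249 with a median of 4027 in WT, and from 3828 to 4926 with a median of 4458 in KO. The highest mouse was WT 4, and the other 5 WT mice reached 4145. The difference was 0.09 (SE 0.08, adjusted p = 0.691). Stard4, which carries sterols between membranes, Soat1, which esterifies cholesterol for storage, and Mylip, a ubiquitin ligase that degrades lipoprotein receptors, differed by 0.03, -0.06 and 0.12.

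**Figure D2:**
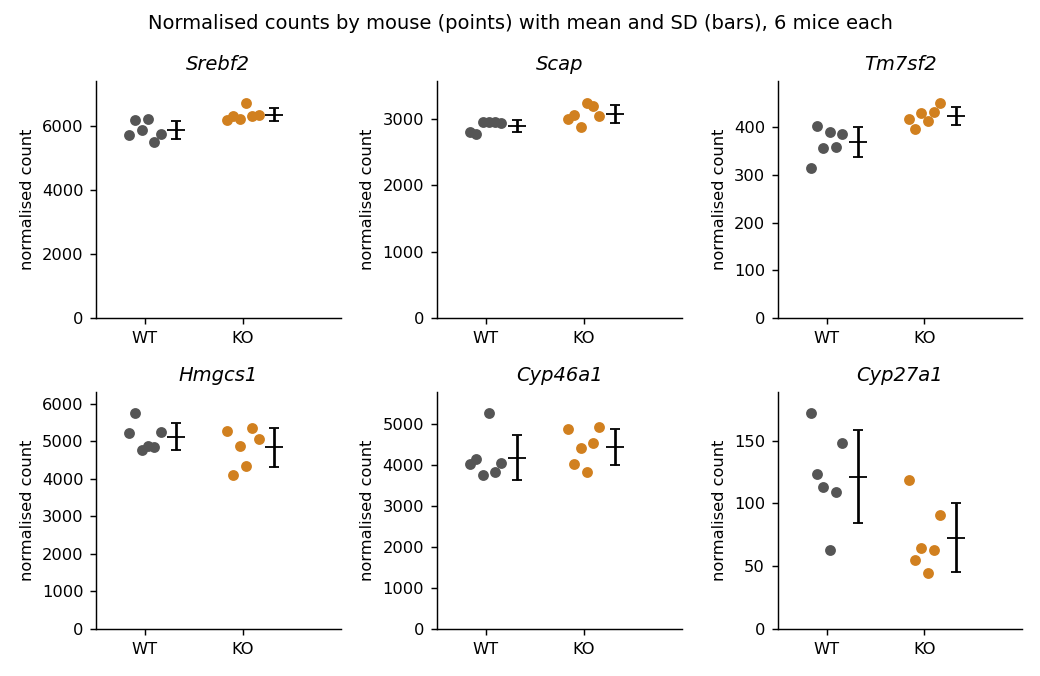
Normalised counts of 6 genes in each of 6 WT and 6 KO mice (points), with mean and SD beside them; each vertical axis starts at 0. Srebf2 and Tm7sf2 overlap at the edge of their ranges, WT 4 stands above the other WT mice in Cyp46a1, and in Cyp27a1 the lowest WT mouse lies among the KO mice and the highest KO mouse among the WT mice.

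With sex in the model 0 of the 29 genes passed the genotype test, where 12 of 18221 genes passed upwards and 86 downwards. A test of whether the genotype difference depended on sex also called 0 of 29 (limma), where it called 0% of all genes. At an unadjusted p under 0.05 that test had 1 member, Sc5d, beside 1.75% of all genes upwards and 1.70% downwards. Without WT 5, 0 of 29 passed between genotypes, where 28 of all genes passed upwards and 137 downwards. Without both mice that carried choroid plexus RNA, chosen after seeing the data, 0 of 29 passed, where 11 and 48 of all genes did.

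The same few mice held the extreme values of many enzymes. KO 2 held the lowest value of all 12 mice in 12 of the 18 enzymes, and KO 4 in another 4. Within KO, KO 1 was the highest in 13 of the 18. Within WT, WT 2 was the highest in 12 and WT 3 the lowest in 8. The SD of log2 values was larger in KO than in WT in 15 of 18 enzymes (83.3%), against 46.7% of all genes, with a median SD over the enzymes of 0.10 in WT and 0.17 in KO. KO 2 and KO 4 also had the lowest myelin scores of the 12 mice (-0.66 each), and their excitatory neuron scores were 0.17 and 0.21. KO 1 had a myelin score of -0.13 and an excitatory neuron score of -0.24. The part of these marker levels in the spread of the enzymes was not tested beyond the slopes given next.

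**Figure D3:**
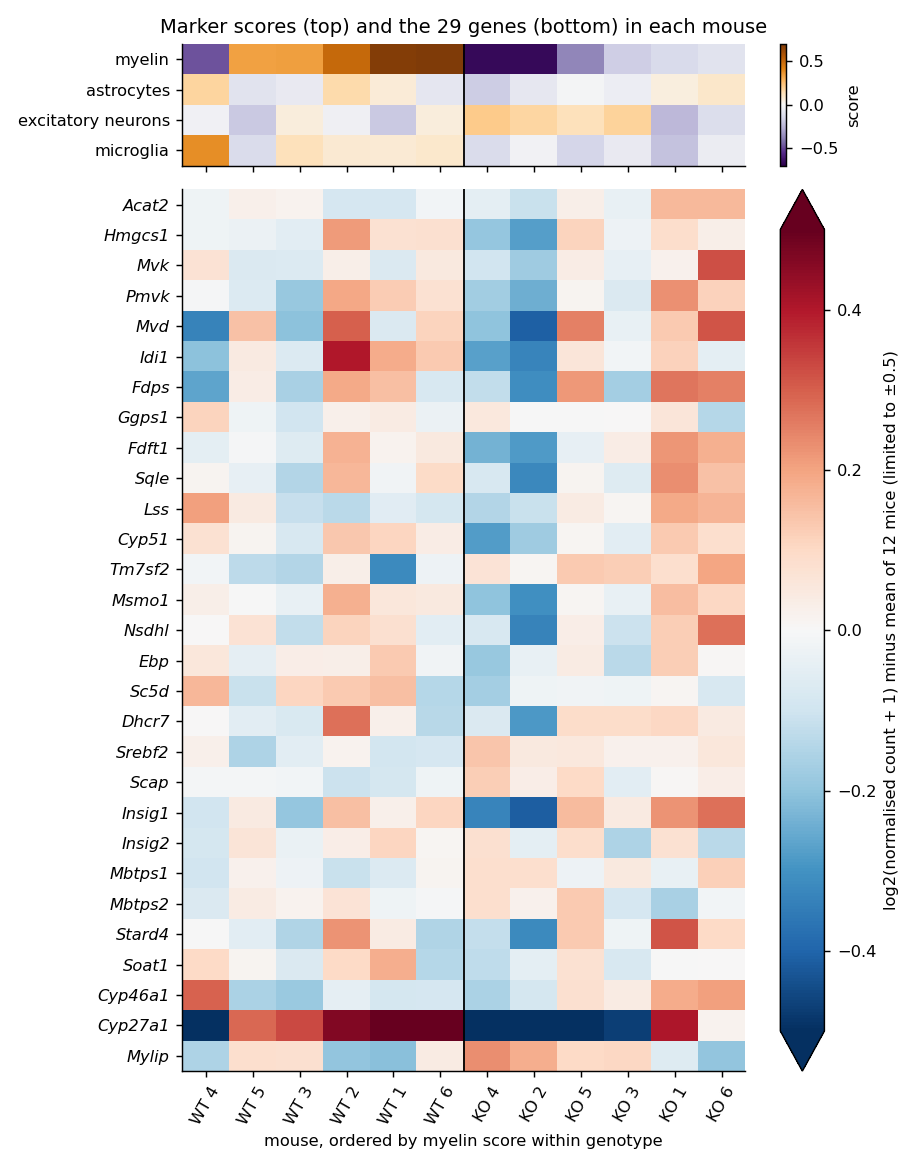
Marker scores (upper panel) and log2(normalised count + 1) of each gene minus its mean over 12 mice (lower panel, colours limited to 0.5 in either direction), with mice ordered by myelin score within WT (left) and KO (right). Most enzyme rows are blue in KO 4 and KO 2 and red in KO 1 and KO 6, and Cyp27a1 runs from blue towards red with the myelin score in both genotypes.

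The slope of each gene on the myelin score, with genotype in the model, asked whether it followed myelin from mouse to mouse. It passed in 1 of 29 genes, Cyp27a1, where it passed in 2.92% of all genes (1.46% upwards). Slopes are in log2 units of the gene per unit of score, so that 1 means a doubling of the gene with each doubling of the myelin genes. For Cyp27a1 the slope was 1.25 (SE 0.20, adjusted p = 0.00457). Its 2 highest values, 172 and 148, were those of WT 1 and WT 6, the mice with the highest myelin scores (0.69 and 0.70). Its 2 lowest, 44.9 and 54.9, were those of KO 4 and KO 2, which had the lowest scores.

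Over the 12 mice, Cyp27a1 correlated with the myelin score at r = 0.936 (permutation p = 4e-05, adjusted over all genes 0.0047) and rho = 0.951 (permutation p = 2e-05, adjusted over all genes 0.00347). Without WT 1 and WT 6, the mice farthest from the median score, r was 0.896. Within WT alone r was 0.979 (exact permutation p = 0.00417), and within KO 0.833 (exact permutation p = 0.0458). By such correlations 4.06% of all genes passed with r and 3.17% with rho.

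Of the 18 enzymes, 14 had a slope on the myelin score above 0, as did 49.6% of all genes, and none passed the test. Their median slope was 0.16, beside -0.0018 over all genes. In the mevalonate route, 7 of 8 slopes were above 0. Mvd had 0.48 (SE 0.16, adjusted p = 0.121), Idi1 0.42 (SE 0.11, adjusted p = 0.0692) and Fdps 0.38 (SE 0.16, adjusted p = 0.218). Pmvk had 0.24 (adjusted p = 0.292) and Hmgcs1 0.21 (adjusted p = 0.238). Idi1 was the nearest of the enzymes to passing, and it passed in 5 of 28 alternative analyses. Of these, the threshold of 0.1 left its adjusted p at 0.0692, and the fit with the score as the only term dropped genotype. Another added the astrocyte score and was chosen after seeing the data. The rest were libraries rescaled to the same total (limma, adjusted p = 0.0431) and DESeq2 (adjusted p = 0.0374).

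Among the sterol enzymes, 7 of 10 slopes were above 0, and Fdft1 was the steepest at 0.27 (SE 0.10, adjusted p = 0.182). Among the control genes Insig1 had 0.39 (SE 0.14, adjusted p = 0.163). The slopes of Srebf2 and Scap were -0.09 (SE 0.05, adjusted p = 0.395) and -0.07 (SE 0.05, adjusted p = 0.490). Across the 12 mice, without genotype in the model, Srebf2 correlated with the myelin score at r = -0.791 (permutation p = 0.00194, adjusted over all genes 0.0497) and rho = -0.790 (permutation p = 0.00323, adjusted over all genes 0.0714). Without WT 1 and WT 6 that r was -0.705. Within WT it was -0.512 (exact permutation p = 0.328) and within KO -0.650 (exact permutation p = 0.142), so the sign was the same in both but neither value passed 0.05 within a genotype. Among the turnover genes Cyp46a1 had a slope of -0.10 (SE 0.13, adjusted p = 0.730).

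WT 4, with its low myelin score, weighed on these slopes. Without it, 4 of 29 genes passed (Fdft1, Insig1, Cyp46a1 and Cyp27a1), where 168 of 18201 genes passed upwards and 94 downwards. The median slope of the 29 genes was then 0.40 in place of 0.08. The slope of Fdft1 was 0.61, that of Insig1 0.87, that of Pmvk 0.59 and that of Hmgcs1 0.45. The slope of Cyp46a1 was then 0.44 (adjusted p = 0.0354) and so changed sign. In this mouse the level of Cyp46a1 was the highest of all, and its myelin score the lowest of the WT mice.

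**Figure D4:**
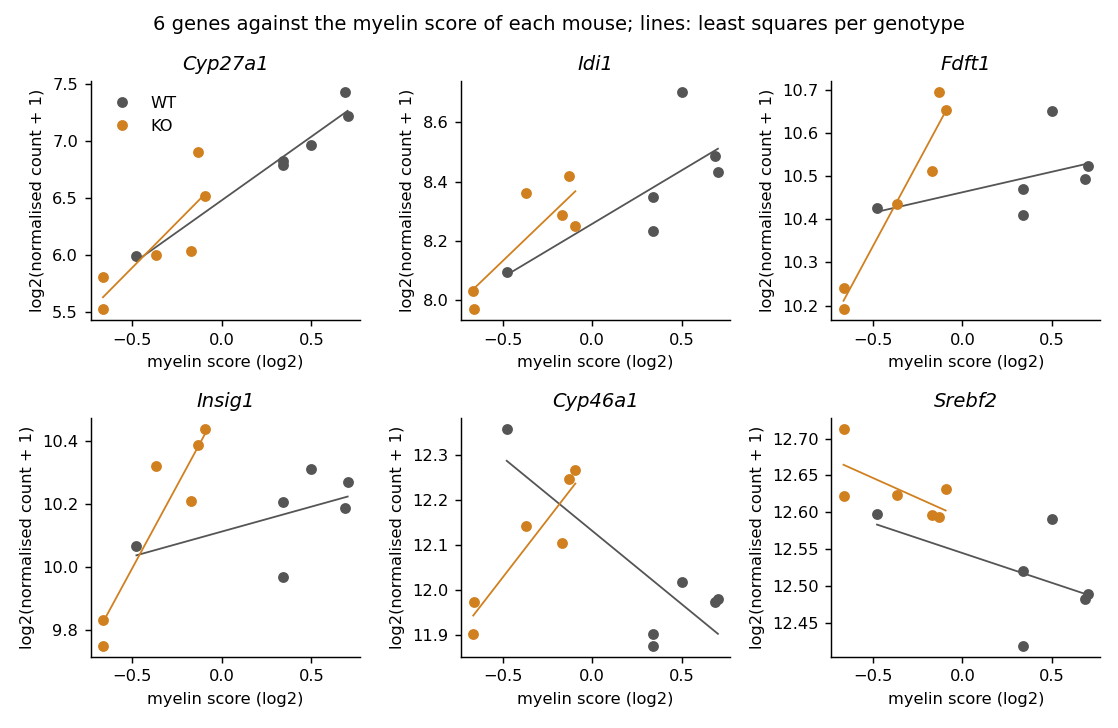
Log2(normalised count + 1) of 6 genes against the myelin score of each mouse, with a least-squares line for WT (grey) and KO (orange); the vertical axes do not start at 0. Cyp27a1 rises along both lines, Fdft1 and Insig1 are steep in KO and shallow in WT, and the WT line of Cyp46a1 falls with the score, from the single WT mouse at -0.48 to the other WT mice.

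Fitted within each genotype, the slope on the myelin score was above 0 in 17 of 18 enzymes in KO and in 10 of 18 in WT, beside 50.1% and 50.3% of all genes. The median enzyme slope was 0.52 in KO and 0.02 in WT. Within KO the myelin score ran with other scores. KO 2 and KO 4, lowest in myelin, had the lowest astrocyte scores (-0.072 and -0.178) and excitatory neuron scores of 0.172 and 0.209. KO 1 and KO 6, highest in myelin, had the highest astrocyte scores (0.054 and 0.095) and the lowest excitatory neuron scores (-0.239 and -0.119). In WT, WT 4 had the lowest myelin score but an astrocyte score of 0.177. The part of these scores in the KO slopes was not tested. A test of the difference between the genotypes' slopes called 0 of 29 genes (limma), where it called 0.258% of all genes. At an unadjusted p under 0.05 the KO slope minus the WT slope was above 0 in 11 members and below 0 in 1, Mylip (-0.52 in KO, 0.04 in WT), beside 8.07% and 8.11% of all genes. The size of this depended on WT 4, and without that mouse the median difference of slopes over the 29 genes was 0.23 in place of 0.38.

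The smallest adjusted p was that of Cyp46a1, whose slope was 0.51 in KO and -0.33 in WT (difference 0.84, SE 0.17, adjusted p = 0.0660). Lss, the cyclase that makes lanosterol, had 0.49 in KO and -0.25 in WT (difference 0.74, SE 0.16, adjusted p = 0.0709). Fdft1 had 0.77 in KO and 0.10 in WT (difference 0.68, SE 0.15, adjusted p = 0.0740). Insig1 had 1.05 in KO and 0.16 in WT (difference 0.89, SE 0.21, adjusted p = 0.0879). Cyp27a1 was steep in both, with 1.60 in KO and 1.12 in WT (difference 0.48, SE 0.45, adjusted p = 0.661). Of the 6 control genes, only Insig1 had a slope above 0 in KO. The count of genes passing this test was 4 without WT 3, 1 without WT 5 and 5 without KO 3, and 0 without any other single mouse. Of all genes, 208 passed upwards and 132 downwards without WT 3, 43 and 16 without WT 5, and 308 and 259 without KO 3.

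**Figure D5:**
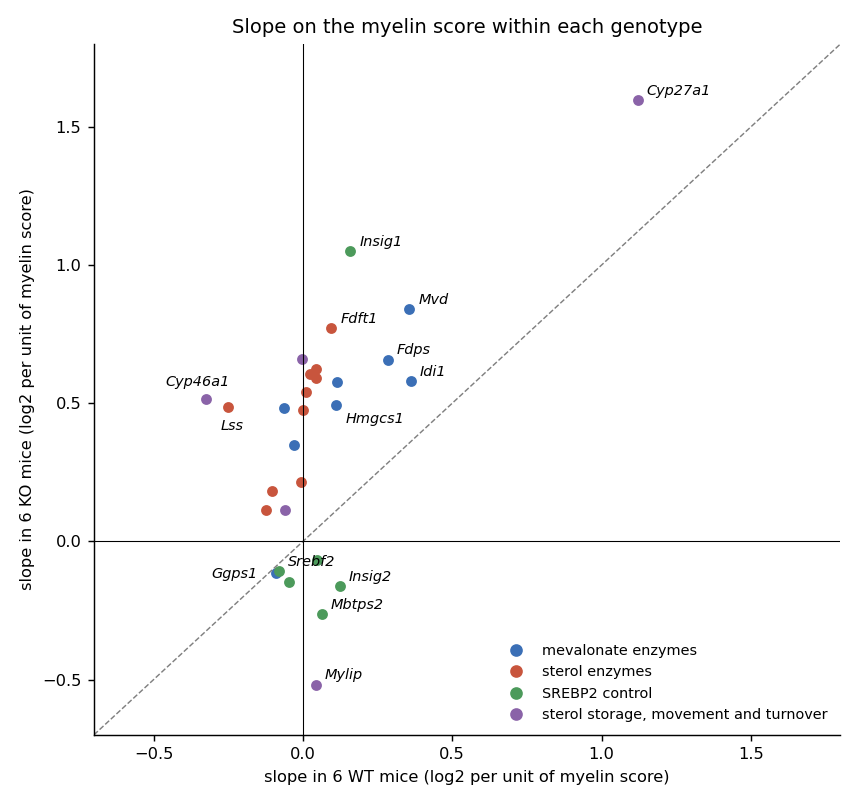
Slope of each of the 29 genes on the myelin score in 6 WT mice (horizontal axis) and in 6 KO mice (vertical axis), in log2 per unit of score, coloured by gene group; the dashed line marks equal slopes. All 10 sterol enzymes lie above the dashed line and above 0 in KO, while Srebf2 and the other control genes except Insig1 lie below 0 in KO.

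The same fit with markers of other cell types gave slopes for comparison. On the astrocyte score all 18 enzymes had a slope above 0, against 48.6% of all genes, with a median of 0.71 beside -0.02. None of them passed the test, and 11 had an unadjusted p under 0.05, beside 7.97% of all genes upwards and 7.03% downwards. The nearest was Cyp51, the lanosterol demethylase, at 0.87 (SE 0.23, adjusted p = 0.106). Cyp46a1 had the steepest upward slope, at 1.21 (SE 0.25, adjusted p = 0.0523). Mylip ranged from 484 to 593 with a median of 540 in WT, and from 489 to 658 with a median of 601 in KO, with broad overlap. It alone passed, and its slope was negative, at -1.24 (SE 0.23, adjusted p = 0.0421), where 0.165% of all genes passed downwards and 0.521% in either direction. Its call was lost in 10 of 18 alternative analyses, among them those without any one of WT 1, WT 3, WT 4, WT 6, KO 1, KO 3, KO 4, KO 5 or KO 6, and with adjusted p-values of up to 0.114. The astrocyte score itself spanned only -0.18 to 0.18.

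On the excitatory neuron score 2 of 18 enzymes had a slope above 0 and 16 below, against 49.2% of all genes above 0, and 0 of 29 genes passed (limma), where 5.21% of all genes did. At an unadjusted p under 0.05 there were 12 members downwards and 1, Mylip, upwards, beside 10.1% and 10.4% of all genes. The nearest was Nsdhl, which removes methyl groups from lanosterol products, at -0.78 (SE 0.23, adjusted p = 0.0653). Fdps had -1.0 (SE 0.34, adjusted p = 0.109) and Cyp27a1 -2.08 (SE 0.72, adjusted p = 0.111). Without WT 5, Pmvk, Cyp51 and Mylip passed, where 532 of all genes passed upwards and 402 downwards. Without WT 4, Lss and Cyp27a1 passed, where 974 and 797 of all genes did. On the choroid plexus score 0 of 29 genes passed (limma), where 1.95% of all genes did, and none had an unadjusted p under 0.05, beside 6.90% of all genes upwards and 3.36% downwards.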

How the data were processed

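Per the labels and methods, hippocampal RNA libraries (NEBNext Ultra II) of 12 mice were aligned with STAR 2.5.0a to mm10. edgeR 3.22.2 is listed without a role, and strandedness and the counter are not given in the sources used here. The authors deposited 1 table of normalised signal, that is gene counts divided by size factors from DESeq2. All values in each library were whole multiples of 1 step (tolerance 1e-06), from which reads were recovered. All 12 columns were used.

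Values were taken as log2(value + 1), a scale that understates changes of low genes, for genes with a mean of at least 10. They were fitted with limma 3.58.1 (R 4.3.3) with a mean-variance trend, genotype alone or with a marker score. p-values are two-sided and Benjamini-Hochberg adjusted over 18221 genes, with a threshold of 0.05. Marker scores used exact permutation over 924 assignments, and correlations over 12 mice 100000 resamples. edgeR 4.0.16, DESeq2 1.42.0, other pseudocounts (0.5 and 5), limits, scalings and covariates, and each mouse left out were alternatives. The fits were tested on simulated data. Figures used matplotlib 3.10.9. Identifiers and exon lengths came from GENCODE M21, and promoters from RefSeq.

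The members and gene lists were chosen with earlier results of these data known. All 29 genes are named. Values by genotype are given for those past a test, the 5 with the smallest unadjusted p between genotypes, the 8 steepest on the myelin score, and Srebf2, Scap, Insig1, Cyp46a1 and Hmgcs1. Mice come from separate animals, with 1 library each.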

Additional observations from a re-analysis of the deposited data

Results flagged for a closer look

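In each genotype, a value was picked out where its gap to the nearest of the other 5 mice took more of the whole range than Dixon's limit for 6 values allows. Of 62 groups, 6 were picked out, where chance gives about 3.1. Among the members, Ggps1, which makes geranylgeranyl diphosphate for protein prenylation, was low in KO 6 at 1110.1 normalised counts (other KO mice 1223.0 to 1279.2). Dhcr7, the last reductase of cholesterol synthesis, was high in WT 2 at 1026.9 (other WT mice 770.5 to 863.8). Srebf2 was high in KO 4 at 6716.3 (other KO mice 6178.8 to 6345.3), the mouse with the lowest myelin score. Cyp46a1 was high in WT 4 at 5249.0 (other WT mice 3756.0 to 4145.1). The myelin score was low in the same mouse at -0.477 (other WT mice 0.339 to 0.702). Usf1 was low in WT 5 at 841.8 (other WT mice 1425.0 to 1582.9). What set these values was not tested.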

How the results depend on the processing

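No paired analysis was possible because the labels give the mice no shared replicate numbers. Between genotypes 0 members passed (all genes 29 upwards and 135 downwards). With each mouse left out 0 to 1 passed, the 1 without WT 4 (108 and 407). On the myelin score 1 passed (all genes 266 upwards and 266 downwards). With libraries rescaled to 1 total 2 passed (443 and 138), as with DESeq2 (391 and 592). The count was also 2 with a threshold of 0.1 (485 and 590) and with the score as the only term (535 and 408). With Pearson's r it was 2, where 740 of all genes passed. With the astrocyte score in the model, chosen after seeing the data, 3 passed (381 and 457). With each mouse left out 1 passed, or 4 without WT 4 (all genes 168 and 94). Cyp27a1 passed in all 28 alternatives, with slopes of 1.06 to 1.56. On the astrocyte score 1 passed (all genes 65 upwards and 30 downwards), and 3 with the myelin score in the model (181 and 88). Chosen after seeing the data, 2 passed without WT 1 and WT 5 (160 and 118). With the excitatory neuron score in the model, also chosen afterwards, 0 passed (2 and 0). With each mouse left out 0 to 2 passed, the 2 without WT 2 (171 and 110) or WT 5 (195 and 151). On the excitatory neuron score 0 passed (all genes 560 upwards and 390 downwards). With sex in the model, chosen after seeing the data, 1 passed (615 and 455), and with each mouse left out 0 to 3. For slopes compared between genotypes 0 passed, and 0 to 5 with each mouse left out.

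With the myelin score in the model the genotype difference turned to 0.13 for Cyp27a1, 0.0608 for Hmgcs1 and 0.26 for Insig1. Insig1 also turned to 0.0013 with quantile normalisation, 0.0070 with edgeR, 0.0074 with DESeq2 and, chosen after seeing the data, 0.0021 without WT 1 and WT 5, 0.0491 without WT 4 and KO 2 and 0.0448 with the astrocyte score. With 1 mouse left out it ranged from -0.0684 to 0.0694, above 0 without WT 2 (0.02), WT 6 (0.0086), KO 2 (0.0694) or KO 4 (0.0533). The myelin slope of Srebf2 turned to 0.0009 with quantile normalisation, and that of Cyp46a1, -0.18 to 0.44 with each mouse left out, to 0.44 without WT 4. The cause was not tested.

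Over all genes, 29 were higher and 135 lower in KO, with DESeq2 130 and 481, with the myelin score in the model 3 and 15, and without WT 4 108 and 407. Cyp27a1, at 37 to 216 reads a library, held the lowest read number of any member. It also had the largest SE between genotypes (0.25). What limited its precision was not tested. Slopes within a genotype rest on 6 mice each, and in WT the range of scores depends on WT 4.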

Other observations

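A further 32 genes of the pathway, among them sterol regulators, oxysterol enzymes and the branches to ubiquinone, dolichol and protein prenylation, were counted in the same fits. Of these, 30 passed the limit on low values, and Ch25h and Soat2 did not. Between genotypes 0 of 30 passed (limma), with 1 higher and 2 lower in KO at an unadjusted p under 0.05, beside 5.92% and 7.60% of all genes. On the myelin score 1 of 30 passed, where 2.92% of all genes did. It was Cyp39a1, an oxysterol hydroxylase of bile acid synthesis, with a slope of 0.93 (SE 0.23, adjusted p = 0.0464). On the excitatory neuron score 1 of 30 passed, where 5.21% of all genes did. It was Coq2, which attaches the side chain of ubiquinone, with a slope of 0.57 (SE 0.13, adjusted p = 0.0225). On the choroid plexus score 1 of 30 passed, where 1.95% of all genes did. It was Erlin2, which takes part in sterol-regulated protein degradation, with a slope of 0.06 (SE 0.01, adjusted p = 0.0268). On the astrocyte score 0 of 30 passed (limma), with 1 upwards and 2 downwards at an unadjusted p under 0.05, beside 7.97% and 7.03% of all genes. In the test of slopes between genotypes 0 of 30 passed (limma), with 0 upwards and 3 downwards, beside 8.07% and 8.11%.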
